A study of Mus musculus with 9 samples.

Results

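Many genes of the mouse genome start or end so close to a neighbour that 1 stretch of open chromatin lies at the ends of both. The regions described here are the 1948 consensus regions of open chromatin, of 80827 in all, that lie at the end of 2 or more protein-coding genes. A region was a member when, for at least 2 different genes, it reached into the stretch around a gene end that runs 1000 bp outwards and 500 bp inwards, on the mouse build mm10 (GRCm38). Of the 12717 regions at any coding gene end, 15.3% were shared in this sense, and the other 10769 lay at the end of 1 gene. No measured count was used to choose the members.

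Open chromatin was read by ATAC-seq, in which a transposase inserts sequencing adapters into accessible DNA, in alphaTC1 cells, a murine cell line of pancreatic alpha type. Of 9 libraries, 3 came from cells transduced with an empty vector, 3 from cells transduced with an shRNA targeting Smndc1, which encodes a Tudor domain protein of the spliceosome, and 3 from cells transduced with an shRNA against Atrx, a chromatin remodeler. All were taken 5 days after transduction, and the labels describe the 3 of a group as separate biological replicates. The labels name 1 shRNA per target and a control with no shRNA, so an effect of the targeted gene and an effect of that hairpin cannot be told apart, and the counts hold no measure of the knockdown itself. A population of cells was read in each library, so a change in the share of cells with a region open cannot be told apart from a change in how open it is per cell.

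When the starts of neighbouring genes face away from each other, the arrangement is called head-to-head, and the stretch between them is called a bidirectional promoter. Such promoters are typically rich in CpG dinucleotides, seldom hold a TATA box, and serve many genes of DNA repair, mitochondria and other housekeeping work. In a head-to-tail pair 1 gene's start lies near the other's 3′ end, and in a tail-to-tail pair 2 genes end next to each other. A gene's start is where the transcription machinery displaces nucleosomes, which is why open chromatin is found there, whereas 3′ ends are less often open.

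The stretches between the bounds of 8 head-to-head pairs are shown because they hold the strongest signal (Tmem129/Tacc3), a textbook pair (Wrap53/Trp53) or differences between groups described further on (the other 6). They were read from the RefSeq promoter table (GRCm38.p6, plus strand, 5′ to 3′). In each, the first-named gene runs to the left and the second to the right. Capitals mark matches, on either strand, to the GC box letters GGGCGG, the box CCAAT, the ETS letters CCGGAAG or the palindromic NRF1 site; TATAAA, AAGATGGC (YY1), TGACGTCA (CRE) and CACGTG (E box) were also searched and are not in these 8 stretches. The stretches of Tmem129/Tacc3 (chr5:33657978-33658127), Wrap53/Trp53 (chr11:69580251-69580347), Rps18/Vps52 (chr17:33955666-33955778), Lrrc42/Hspb11 (chr4:107253534-107253592) and Blzf1/Nme7 (chr1:164307488-164307523) are whole. For Ubxn6/Hdgfl2 (chr17:56079381-56079598), Phtf2/Tmem60 (chr5:20882203-20882452) and Tada2b/Ccdc96 (chr5:36484338-36484587) the table reaches over 218 of 265, 250 of 315 and 250 of 302 bases.
Tmem129/Tacc3: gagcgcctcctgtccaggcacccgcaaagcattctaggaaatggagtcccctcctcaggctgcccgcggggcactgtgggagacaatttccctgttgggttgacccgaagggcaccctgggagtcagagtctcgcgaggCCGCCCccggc
Wrap53/Trp53: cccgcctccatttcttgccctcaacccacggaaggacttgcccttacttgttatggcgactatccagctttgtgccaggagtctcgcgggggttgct
Rps18/Vps52: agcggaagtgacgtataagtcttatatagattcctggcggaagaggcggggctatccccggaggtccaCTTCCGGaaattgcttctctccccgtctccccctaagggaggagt
Lrrc42/Hspb11: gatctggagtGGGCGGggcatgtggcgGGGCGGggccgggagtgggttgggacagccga
Blzf1/Nme7: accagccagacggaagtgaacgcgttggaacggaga
Ubxn6/Hdgfl2: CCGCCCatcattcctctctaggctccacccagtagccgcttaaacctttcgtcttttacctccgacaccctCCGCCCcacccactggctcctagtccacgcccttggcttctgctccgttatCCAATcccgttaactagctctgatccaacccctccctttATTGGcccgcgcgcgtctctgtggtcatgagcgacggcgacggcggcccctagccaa
Phtf2/Tmem60: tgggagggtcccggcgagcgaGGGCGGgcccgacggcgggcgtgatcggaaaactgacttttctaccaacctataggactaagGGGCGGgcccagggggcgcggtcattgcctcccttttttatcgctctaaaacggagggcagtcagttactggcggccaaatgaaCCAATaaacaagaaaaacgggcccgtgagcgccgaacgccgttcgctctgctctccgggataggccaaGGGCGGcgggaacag
Tada2b/Ccdc96: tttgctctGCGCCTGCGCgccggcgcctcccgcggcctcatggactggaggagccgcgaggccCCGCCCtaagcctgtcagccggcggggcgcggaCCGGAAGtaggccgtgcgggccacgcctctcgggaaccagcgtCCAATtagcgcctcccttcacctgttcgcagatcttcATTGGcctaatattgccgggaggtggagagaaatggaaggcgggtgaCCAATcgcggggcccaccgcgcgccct
GC content ran from 55.8% (Rps18/Vps52) to 74.6% (Lrrc42/Hspb11). Wrap53/Trp53 and Blzf1/Nme7 held none of the motifs searched, Rps18/Vps52 held 1 ETS match, and Tada2b/Ccdc96 held the NRF1 match and an ETS match. A match to these letters is a description and does not show that a factor binds.

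Across all promoters with a start in a head-to-head region, the sequence differed in several features from that of single-gene promoters. The table covers 250 bases before to 50 bases after each start, and 1540 such promoters of 1360 genes lay in 798 head-to-head regions. A CpG observed-to-expected ratio above 0.6, a usual mark of a CpG island, was found in 92.2% of them, in 78.9% of 6142 promoters in single-gene end regions and in 47.6% of all 21263 coding promoters. ETS letters were in 30.6%, 18.6% and 11.6% of these classes, NRF1 letters in 17.5%, 11.9% and 6.38%, and YY1 letters in 8.57%, 4.58% and 3.05%. TATA letters went the other way, at 3.44%, 6.22% and 12.6%. GC boxes (69.2%, 70.4% and 46.2%) and CCAAT boxes (40.6%, 40.3% and 38.2%) had nearly the same share in head-to-head and single-gene promoters. E box letters were in 11.5%, 10.4% and 7.84%, and CRE letters in 4.48%, 3.71% and 2.23%. The paired promoters of a head-to-head region overlap in sequence and are not independent, so these shares carry no test.

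The 1948 regions belong to 1800 different sets of genes, and 147 of those sets have 2 or more regions. In all, 3403 genes have a shared end region, out of 11717 coding genes that have any open end, a share of 29.0%. Most members, 1905, lie at 2 genes, 42 at 3 genes and 1 at 5 genes: Gm20517, Usp49, Tomm6, Frs3 and Prickle4 (chr17:47687684-47688995). That region read 67.1, 62.7 and 55.4 CPM (counts scaled to library size with TMM factors) in the empty vector libraries. The bounds of the 2 genes lie apart in 1380 members, overlap in 488 and are nested in 37.

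Strand was known for 2837 of the 3403 genes, and it split the members by arrangement. Head-to-head members were the largest class, with 865 regions, followed by 359 head-to-tail and 95 tail-to-tail regions. In 29 members with both strands given, the region reached the windows at both ends of at least 1 of the genes. A further 503 lie at a pair for which at least 1 strand was not given. The distance between the starts of head-to-head pairs had a median of 166 bp, with quartiles of 66 and 525 bp, and a listed start of each gene lay inside the region in 65.8% of them. Over all members, 610 hold starts of 2 or more genes, 759 of 1 gene and 579 of none, as listed in the promoter table, which is not complete and gives some genes several starts.

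Gene families were unevenly placed at shared ends, read against the share of 29.0% over all genes. Among DNA repair genes 51 of 99 (51.5%) had a shared end, among subunits of the respiratory chain and ATP synthase 44 of 86 (51.2%), and among mitochondrial ribosomal proteins 36 of 72. The tRNA synthetases, which charge tRNAs with amino acids, had 16 of 35 (45.7%) and splicing factors 47 of 120 (39.2%). Chromatin regulators were close to all genes, with 35 of 116 (30.2%), and so were cytosolic ribosomal proteins, with 25 of 76 (32.9%). Genes of the cell cycle and replication had 21 of 85 (24.7%) and proteasome genes 12 of 44 (27.3%). Genes named for coiled coils (Ccdc) had 35 of 90 (38.9%), targets of p53 9 of 25 (36.0%), genes named for transmembrane segments (Tmem) 57 of 168 (33.9%) and zinc finger genes 51 of 305 (16.7%). Islet hormones and regulators had 2 of 30 (6.67%), among them the transcription factor Foxa3. Histone genes had the highest share, 29 of 50 (58.0%), and 21 of their 24 regions lie on chromosome 13 between neighbouring histone genes. These shares follow from the genes' positions as well as from which ends are open, and no test was made of them.

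**Figure D1:**
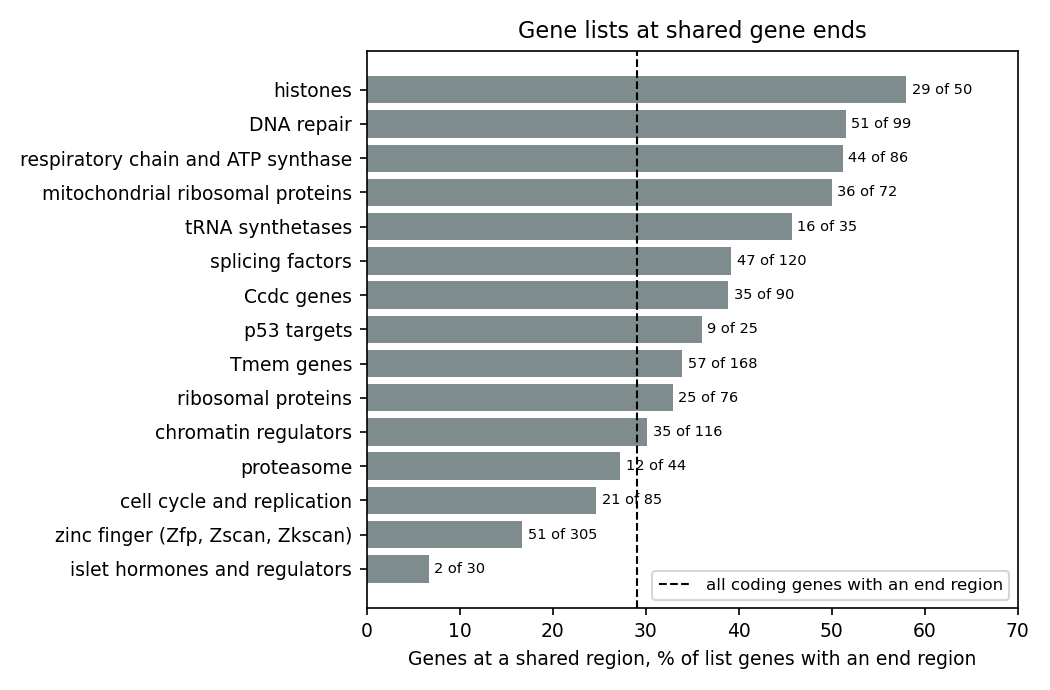
Share of each gene list at a shared end region, in percent of the list's genes that have any end region, with the counts beside the bars and a dashed line at 29.0% for all coding genes. Histone genes reach 58.0%, DNA repair genes 51.5% and islet genes 6.67%.

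Shared ends were also uneven along the chromosomes. They made up 23.1% of gene-end regions on chromosome 7, 21.8% on chromosome 17 and 20.7% on chromosome 19, against 8.14% on chromosome 18, 10.4% on chromosome 6 and 10.5% on X.

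The libraries held between 5290810 and 8145228 counts over all regions, and a member had a median of 176 to 310 counts in a library. Replicate 3 of each group stood apart: the members held 6.97 to 7.04% of all counts there and 7.85 to 8.70% in the other 6 libraries, and the strongest 10% of all regions held 38.5 to 38.8% against 43.3 to 48.8%. That contrast does not follow the groups. Values are therefore given on a pair of scales: CPM with TMM factors, and corrected CPM, in which a smooth curve of each library against the mean level (trended offsets) levels the contrast of strong and weak regions between libraries. Of the markers checked at gene ends in empty vector, alpha cell genes read 62.6 CPM at Pcsk2, 35.2 at Gcg, 27.8 at Irx1, 13.1 at Irx2 and 1.20 at Ttr. No end region lay at Ins1, Ins2, Pdx1, Sst, Hhex, Cpa1, Prss2, Krt19, Pecam1, Cdh5, Ptprc or Adgre1, while the beta cell genes Mafa (62.1 CPM) and Nkx6-1 (52.4), the ductal gene Sox9 (51.7) and the acinar gene Cela1 (19.4) had one.

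Shared gene ends were more open than single-gene ends in each of the 9 libraries. The median member read 39.8, 40.2 and 29.4 CPM in empty vector replicates 1 to 3, and the median single-gene end region 28.7, 28.6 and 21.6 CPM. The log2 difference between these medians was 0.47, 0.49 and 0.45 in empty vector, 0.43, 0.48 and 0.45 with Smndc1 shRNA and 0.53, 0.50 and 0.48 with Atrx shRNA. Among regions with a mean count of at least 50 it was 0.24 in empty vector. Replicate 3 had the lowest level of both classes in every group, and the difference between the classes moved little with it. Members were slightly wider, with a median of 745 bp against 698 bp, and per kb of width the medians in empty vector were 42.3 ± 6.89 and 31.7 ± 4.91 CPM (mean ± SD of library medians, n = 3). Regions away from gene ends read 4.48 ± 0.586 CPM. The regions of a class share their libraries and are not replicates, so this difference has no p-value.

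The level differed by arrangement. Head-to-head members had a median of 46.6, 46.0 and 34.3 CPM in empty vector, above single-gene regions at a start, with 34.0, 34.4 and 25.3 CPM. Head-to-tail members read 36.0, 35.5 and 27.8 CPM, slightly above single-gene starts in each of the 3 libraries. Tail-to-tail members read 8.59, 6.74 and 8.45 CPM, far below each class with a start in each library, beside 6.17 ± 0.518 CPM at single-gene 3′ ends. Per kb these classes had 49.8 ± 8.72 (head-to-head), 37.4 ± 6.36 (single-gene starts), 40.1 ± 5.40 (head-to-tail), 12.1 ± 1.15 (tail-to-tail) and 10.8 ± 0.868 CPM (single-gene 3′ ends).

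**Figure D2:**
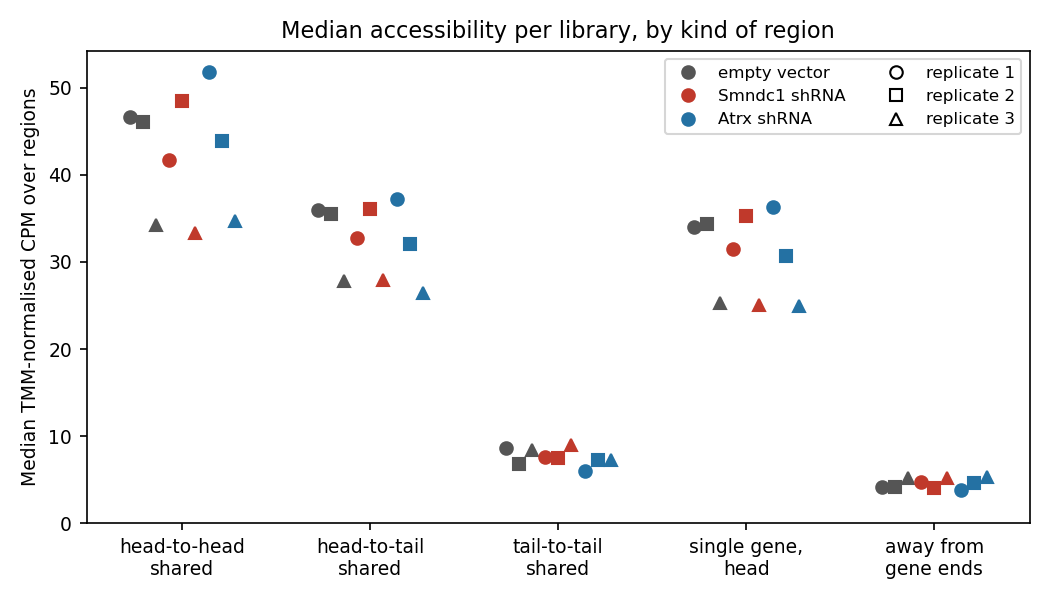
Median TMM-normalised CPM over the regions of each class in each of the 9 libraries; each point is a library, coloured by group and shaped by replicate number. Head-to-head regions lie above single-gene starts in each library and range from 33.3 to 51.8 CPM; tail-to-tail regions range from 5.94 to 8.96 CPM.

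Among head-to-head members the level went with the distance between the starts. Pairs whose starts lie 0 to 100 bp apart (219 regions) had medians of 41.5, 40.6 and 29.4 CPM in the empty vector libraries. At 101 to 250 bp (222 regions) the medians were 48.7, 48.5 and 35.4 CPM, and at 251 to 500 bp (124 regions) 56.7, 58.1 and 41.9 CPM. The 80 regions whose starts pass each other, so that the transcripts overlap, read 36.9 ± 6.70 CPM. Beyond 500 bp the level was 49.2 ± 10.5 CPM at 501 to 1000 bp (76 regions) and 39.4 ± 6.52 CPM at 1001 to 10000 bp (107 regions, mean ± SD of 3 library medians). Both starts lay inside the region in 204 of 219, 192 of 222 and 97 of 124 regions in the classes from 0 to 500 bp. Beyond, they did so in 16 of 76 and 3 of 107, so the classes differ in the starts they hold as well as in distance. A further 37 regions with starts over 10000 bp apart are in no class. In each of the 3 libraries the 251 to 500 bp class was the highest and the 0 to 100 bp class was lower than it. Per kb of width the medians were 41.5, 55.5 and 62.9 CPM in the classes up to 500 bp, 66.9 CPM at 501 to 1000 bp and 47.1 CPM beyond, so the highest class was then the next one.

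**Figure D3:**
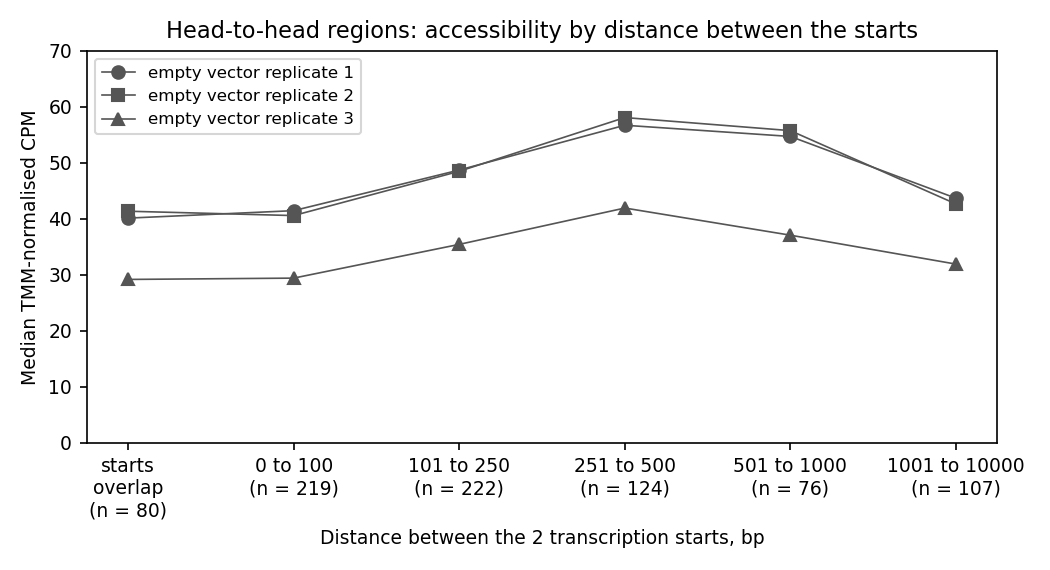
Median TMM-normalised CPM of head-to-head regions by the distance between the starts of the paired genes, 1 line for each empty vector library. The level peaks at 251 to 500 bp in all 3 lines, and replicate 3 lies below the other 2 throughout.

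Where a gene pair has 2 regions, the one with more starts was the stronger in most cases. Exactly 2 regions were found at 146 sets of genes, and in 91 of them 1 region held more starts than the other, at a median distance of 108 bp from it. The region with more starts was the higher one in 73 of the 91, with medians of 39.1 and 17.8 CPM in empty vector. Its companion is a separate region within the same gene ends, as at Ccdc148/Pkp4, where the region over both starts read 56.1 ± 17.8 CPM and the one beside it 27.3 ± 7.41 CPM (n = 3).

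Members spread widely, from 1.11 to 214 CPM in empty vector, with quartiles of 22.0, 36.7 and 54.5 CPM. Of the members, 30.5% were among the strongest 5% of all regions, against 20.2% of single-gene end regions, and 4.52% against 12.3% read under 5 CPM. The highest total was at Tmem129/Tacc3 (chr5:33657430-33658764), a ubiquitin ligase of the endoplasmic reticulum and a spindle protein, with 224, 243 and 176 CPM in the empty vector libraries over 1335 bp. Usp5/Cdca3 (186 ± 44.9), Khsrp/Slc25a41 (182 ± 35.4), Nop14/Grk4 (166 ± 23.7), Phtf2/Tmem60 (155 ± 27.7) and Slc5a6/Atraid (152 ± 26.7 CPM) came next, and the spread between libraries does not separate these neighbours. Per kb the highest was Nop14/Grk4 (chr5:34659943-34660644), a ribosome assembly factor and a receptor kinase, with 236 CPM per kb, followed by Mdh1/Wdpcp with 231 and Brca1/Nbr1 with 206. The region of Brca1, a homologous recombination factor, and Nbr1, an autophagy receptor (chr11:101552506-101553090), read 133, 133 and 94.6 CPM in empty vector. It holds 1 start listed for Nbr1 and lies outside the 151 bp stretch between the bounds of the 2 genes.

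Of 51 gene pairs named from textbook knowledge of bidirectional promoters and close neighbours, 25 had a shared region here. The chaperonin genes Hspd1/Hspe1, whose products form a complex in mitochondria, read 92.4, 89.2 and 52.6 CPM in empty vector. Ppat/Paics, which encode enzymes of purine synthesis, read 83.0, 86.5 and 56.0 CPM. Replicate 3 was the lowest at both, as over all members. The tumour suppressor pair Wrap53/Trp53 (chr11:69579061-69580826) read 80.4, 72.1 and 62.7 CPM. The replicative helicase and repair kinase pair Mcm4/Prkdc read 89.3 ± 18.5, Nfs1/Romo1, of iron-sulfur cluster assembly and the mitochondrial membrane, 91.5 ± 10.7, and Uqcrq/Gdf9, a complex III subunit and a growth factor, 88.5 ± 15.7 CPM (mean ± SD, n = 3). None of these 6 pairs, nor Brca1/Nbr1 or Rpa1/Smyd4 (57.0 ± 7.34 CPM), passed a test between groups on either scale.

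The study asks how loss of Smndc1 or Atrx changes open chromatin in alpha cells. With TMM factors, no shared gene-end region passed in any of the 3 comparisons (edgeR quasi-likelihood test, Benjamini-Hochberg adjusted over 80345 regions, threshold 0.05). Of all regions, 0.156% were called for Smndc1 shRNA against empty vector (0.0199% higher, 0.136% lower), 0% for Atrx shRNA against empty vector and 0.0759% for Smndc1 against Atrx shRNA (0.0224% higher, 0.0535% lower). Of the 1947 members tested, 41, 47 and 41 had an unadjusted p under 0.05, which is 2.11, 2.41 and 2.11% of them beside 8.09, 5.75 and 5.4% of all regions. With trended offsets this order turned, to 15.8, 14.7 and 10.5% of the members beside 12.4, 9.46 and 9.2% of all regions. Single-gene end regions turned as well, from 4.14, 4.03 and 3.13% with TMM factors to 14.4, 13.7 and 10.8%. With TMM factors the lowest adjusted p of a member was 0.0693, 0.328 and 0.307. DESeq2 and limma voom also called 0 members in each comparison. The member left out by the filter on low counts, Tfpi2/Gngt1, had a mean count of 6.33. The comparisons with empty vector share its 3 libraries, so their calls are given side by side and not as support for each other.

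With trended offsets, 27 members passed for Smndc1 shRNA against empty vector, 11 of them higher and 16 lower. They are 1.39% of the members, beside 1.11% of all regions (0.413% higher and 0.699% lower) and 1.24% of single-gene end regions, so shared ends were called about as often as other gene ends. The median log2 fold change of the members was 0.03, beside 0.01 over all regions. In 26 of the 27 the 3 Smndc1 and the 3 empty vector libraries did not overlap on corrected CPM, and in 13 they did not overlap on TMM levels. The calls were picked on the same corrected values, so this separation follows in part from the choice and is no further support. The share over all members or all regions is not given here. All 16 lower regions lie at genes whose bounds do not overlap, as do 6 of the 11 higher ones and 1380 of the 1948 members. Head-to-head regions are 9 of the lower ones, 3 of the higher ones and 865 of the members. The median level in empty vector was 85.3 CPM for the 16 lower regions. It was 42.7 CPM for the 11 higher regions and 36.7 CPM for all members. The part of level, contrast or arrangement in these calls was not tested. The count rests on single libraries: leaving out empty vector replicate 1 or 2 gave 11 and 5, and leaving out Smndc1 shRNA replicate 1 or 2 gave 16 and 17. In a fit that dropped the 3 replicate 3 libraries, 15 of these calls passed again.

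**Figure D4:**
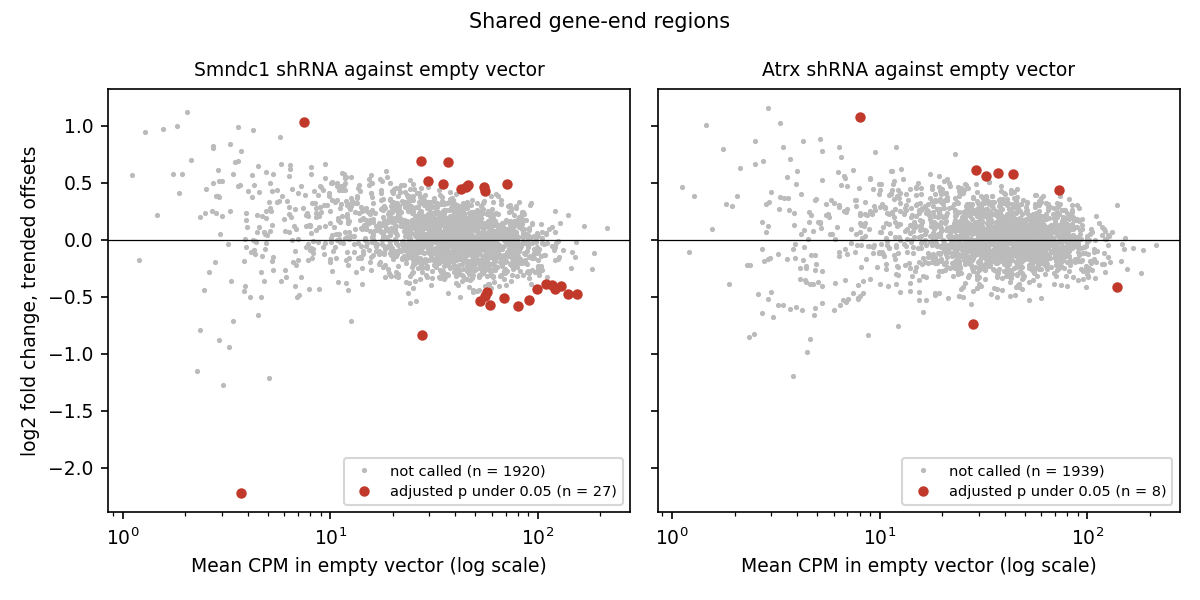
The log2 fold change with trended offsets against the mean empty vector CPM (log axis) for each member, for Smndc1 shRNA (left) and Atrx shRNA (right) against empty vector; red points passed an adjusted p of 0.05. On the left, 27 points passed, and the 16 lower ones have a median of 85.3 CPM; on the right, 8 passed.

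The clearest rise was at Ccr10/Cntnap1 (chr11:101174792-101175448), at a chemokine receptor gene and a gene for an axonal adhesion protein whose bounds overlap. Its corrected CPM was 36.4, 35.5 and 37.1 in empty vector replicates 1 to 3, 58.5, 57.3 and 58.7 with Smndc1 shRNA and 53.8, 57.7 and 52.0 with Atrx shRNA. Each library of either shRNA lay above each empty vector library, and the 3 libraries within a group were close together. With trended offsets the log2 fold change was 0.68 ± 0.13 (SE) for Smndc1 shRNA (adjusted p = 0.000398) and 0.59 ± 0.13 for Atrx shRNA (adjusted p = 0.012). The direct comparison of the shRNAs gave 0.09 ± 0.13 (adjusted p = 0.889). For Smndc1 shRNA the call held in each of the 9 fits that left out 1 library, with adjusted p up to 0.0167. For Atrx shRNA it was lost without empty vector replicate 1 or 2 or Atrx shRNA replicate 1 or 2 (adjusted p = 0.138, 0.110, 0.0894 and 0.173). With TMM factors the values were 0.63 ± 0.26 (adjusted p = 0.443) and 0.59 ± 0.26 (adjusted p = 0.808).

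Phtf2/Tmem60 (chr5:20881903-20882679), among the strongest members and with both starts inside, was the other call for Smndc1 shRNA that held in all 9 such fits, but it was lost without replicate 3 of every group (log2 fold change -0.33, adjusted p = 0.102), where Ccr10/Cntnap1 still passed (adjusted p = 0.0008). Its corrected CPM was 151, 149.8 and 162 in empty vector replicates 1 to 3, 129, 111 and 92.5 with Smndc1 shRNA and 123, 131 and 132 with Atrx shRNA. The empty vector and Smndc1 libraries did not overlap, and the Atrx libraries lay between their means. The log2 fold change for Smndc1 shRNA was -0.47 ± 0.10 (adjusted p = 0.00223; with TMM factors -0.47 ± 0.28, adjusted p = 0.714), and for Atrx shRNA -0.26 ± 0.10 (adjusted p = 0.321). The second region of this pair, 112 bp away and without a start, read 31.6 ± 5.62 CPM in empty vector and had a log2 fold change of 0.34 ± 0.14 for Smndc1 shRNA (adjusted p = 0.265).

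Other head-to-head promoters fell with Smndc1 shRNA. At Lrrc42/Hspb11 (chr4:107252989-107254219; Hspb11 is a subunit of intraflagellar transport), the corrected CPM was 66.2, 90.5 and 79.4 in empty vector, 55.4, 51.3 and 51.3 with Smndc1 shRNA and 63.2, 53.5 and 61.5 with Atrx shRNA. Its Smndc1 libraries were nearly equal and below each empty vector library, with a log2 fold change of -0.58 ± 0.12 (adjusted p = 0.00129). The call was lost without empty vector replicate 2 (adjusted p = 0.123). At Ubxn6/Hdgfl2 (chr17:56078816-56079815), a cofactor of the segregase p97 and a chromatin reader, 122, 147 and 148 in empty vector stood beside 100.1, 92.6 and 108 with Smndc1 shRNA and 96.7, 106 and 111 with Atrx shRNA. Both shRNAs lay below each empty vector library. The log2 fold change was -0.48 ± 0.10 for Smndc1 shRNA (adjusted p = 0.00288) and -0.41 ± 0.10 for Atrx shRNA (adjusted p = 0.0396). The first call was lost without empty vector replicate 2 (adjusted p = 0.0804), and the second without any 1 of 6 libraries: empty vector replicates 1 to 3 (adjusted p = 0.0769, 0.274 and 0.158), Smndc1 shRNA replicate 1 (0.0531) and Atrx shRNA replicates 1 and 2 (0.348 and 0.222).

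Tjp3/Pip5k1c (chr10:81292565-81293149), a tight junction protein and a lipid kinase, read 57.4, 62.9 and 50.7 corrected CPM in empty vector, 38.1, 34.2 and 43.3 with Smndc1 shRNA and 40.6, 43.6 and 46.0 with Atrx shRNA. The shRNA libraries lay below each empty vector library, and for Smndc1 the log2 fold change was -0.57 ± 0.13 (adjusted p = 0.00534). Leaving out empty vector replicate 1, empty vector replicate 2 or Smndc1 shRNA replicate 2 in turn ended the call, with adjusted p = 0.0552, 0.142 and 0.0747. Blzf1/Nme7 (chr1:164307239-164307891), a Golgi matrix protein and a nucleoside kinase family member whose bounds are 36 bp apart, read 53.4, 52.2 and 47.7, 44.1, 29.5 and 32.1 and 41.4, 34.0 and 30.4 in the same order of groups. Its groups were apart too, with a log2 fold change of -0.54 ± 0.14 for Smndc1 shRNA (adjusted p = 0.019). The call was lost without empty vector replicate 1 or 2 or Smndc1 shRNA replicate 2 or 3 (adjusted p = 0.174, 0.161, 0.203 and 0.0626). Tada2b/Ccdc96 (chr5:36484130-36484822), at a subunit of histone acetyltransferase complexes, had the smallest fall of the 16 lower calls, at -0.39 ± 0.11 (adjusted p = 0.0398), and held in 1 of the 9 fits without a library, with adjusted p up to 0.303. With TMM factors the adjusted p of the regions in this and the preceding paragraph ran from 0.423 (Tjp3/Pip5k1c) to 0.777 (Tada2b/Ccdc96) for Smndc1 shRNA.

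Lower calls also lay at the 3′ end of 1 gene beside a gene whose strand was not given. Which end of Xpc or of Carm1 the regions below lie at is therefore not known here. At Tmem43/Xpc (chr6:91488767-91489360), the end of a nuclear envelope protein gene beside Xpc, which recognises damage in nucleotide excision repair, the corrected CPM was 22.9, 31.3 and 25.7 in empty vector, 12.7, 13.1 and 19.5 with Smndc1 shRNA and 19.8, 15.8 and 18.3 with Atrx shRNA. Each Smndc1 library lay below each empty vector library on both scales. The log2 fold change was -0.84 ± 0.19 (adjusted p = 0.00564) and with TMM factors -0.92 ± 0.23 (adjusted p = 0.0693), the lowest TMM value of any member in this comparison. Leaving out empty vector replicate 2, Smndc1 shRNA replicate 1 or Smndc1 shRNA replicate 2 in turn ended the call, with adjusted p = 0.196, 0.0912 and 0.0595. AB124611/Carm1 (chr9:21546019-21546901; Carm1 is an arginine methyltransferase) read 82.1, 85.1 and 105, 65.0, 61.5 and 61.7 and 73.2, 69.8 and 69.2 in the same groups. Its shRNA libraries lay below each empty vector library, with a log2 fold change of -0.53 ± 0.11 (adjusted p = 0.00247). The call was lost without empty vector replicate 3 (adjusted p = 0.0596). With TMM factors AB124611/Carm1 read 90.6 ± 6.69 CPM in empty vector. The medians there were 6.17 CPM at single-gene 3′ ends, 31.2 CPM at single-gene starts and 33.1 CPM at head-to-tail members.

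Smc4, which encodes a core subunit of condensin, has a shared region at each end, and with Smndc1 shRNA the one beside Trim59 was called lower and the one beside Ift80 higher. The weak region it shares with Trim59 (chr3:69034699-69035199) had counts of 39, 17 and 20 in empty vector, 7, 8 and 2 with Smndc1 shRNA and 15, 20 and 14 with Atrx shRNA. The Smndc1 libraries were the 3 lowest, and the log2 fold change was -2.22 ± 0.62 (adjusted p = 0.0396). The call was lost without empty vector replicate 1 or 2, Smndc1 shRNA replicate 1 or 3 or Atrx shRNA replicate 2 (adjusted p = 0.538, 0.0731, 0.127, 0.187 and 0.0674), and with these few counts the size of the change is poorly known. The region shared with the intraflagellar transport gene Ift80 (chr3:69005172-69006244) read 36.3, 49.0 and 39.6 corrected CPM in empty vector, 53.7, 60.0 and 56.8 with Smndc1 shRNA and 61.4, 55.2 and 52.5 with Atrx shRNA. All 6 shRNA libraries lay above the empty vector libraries, with a log2 fold change of 0.44 ± 0.13 for Smndc1 shRNA (adjusted p = 0.048) and 0.44 ± 0.13 for Atrx shRNA (adjusted p = 0.114). The Smndc1 call held in 2 of the 9 fits without a library, with adjusted p up to 0.396 without empty vector replicate 1.

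Among the other higher regions with Smndc1 shRNA, Ccdc148/Pkp4 (chr2:59161326-59161826) is the region beside the starts of a coiled-coil gene and of plakophilin 4, a junction protein. It read 29.0, 27.6 and 22.1 corrected CPM in empty vector, 46.7, 46.3 and 33.8 with Smndc1 shRNA and 36.2, 31.9 and 29.7 with Atrx shRNA. Each Smndc1 library was above each empty vector library, at 0.69 ± 0.15 (adjusted p = 0.00202). The call was lost without Smndc1 shRNA replicate 1 (adjusted p = 0.052). The stronger region over both starts of the pair had a log2 fold change of 0.01 ± 0.12 (adjusted p = 0.979). D17H6S56E-5/Vars (chr17:35000558-35001554; Vars is the valyl tRNA synthetase) read 71.4, 67.9 and 71.9 in empty vector and 94.4, 103 and 98.2 with Smndc1 shRNA, which did not overlap (0.49 ± 0.11, adjusted p = 0.00503). The call was lost without empty vector replicate 2 (adjusted p = 0.0893).

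Lrrc14/Lrrc24 (chr15:76714270-76714770), a weak region between a pair of leucine-rich repeat genes, read 7.31, 6.19 and 8.09 corrected CPM in empty vector, 10.5, 21.3 and 12.4 with Smndc1 shRNA and 9.90, 14.1 and 9.06 with Atrx shRNA. Smndc1 shRNA replicate 2 carried much of the rise of 1.03 ± 0.26 (adjusted p = 0.015), and without it adjusted p was 0.367; it was 0.113 and 0.197 without empty vector replicates 1 and 2. Neurl4/Gps2 (chr11:69913806-69914599; Gps2 is a corepressor subunit) had 34.6, 33.8 and 34.3 in empty vector and 51.5, 43.6 and 49.3 with Smndc1 shRNA, a rise of 0.49 ± 0.14 (adjusted p = 0.038). The 3-gene region Eme2/Mrps34/Nme3 (chr17:24894787-24895672), at an endonuclease subunit, a mitochondrial ribosomal protein and a nucleoside diphosphate kinase, had 26.1, 31.2 and 29.2 and 41.2, 38.8 and 43.5, a rise of 0.51 ± 0.14 (adjusted p = 0.04). In both, the groups did not overlap, but the calls held in 3 and 1 of the 9 fits without a library, with adjusted p up to 0.197 and 0.298. Of the 11 remaining called regions, 7 were lower and 4 higher. The lower ones lie at Mtrf1l/Rgs17, Esrra/Catsperz, Samd4b/Gmfg, Abtb1/Podxl2, Pdcd10/Serpini1, Cpne9/Brpf1 and Cryzl1/Itsn1 and the higher ones at Oplah/Exosc4/Gpaa1, Trp53i13/Abhd15, Sac3d1/Snx15 and Neurl2/Ctsa. Their log2 fold changes ran from -0.51 to -0.40 and from 0.42 to 0.48, each call was lost without at least 1 library, and at Esrra/Catsperz the groups overlapped.

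**Figure D5:**
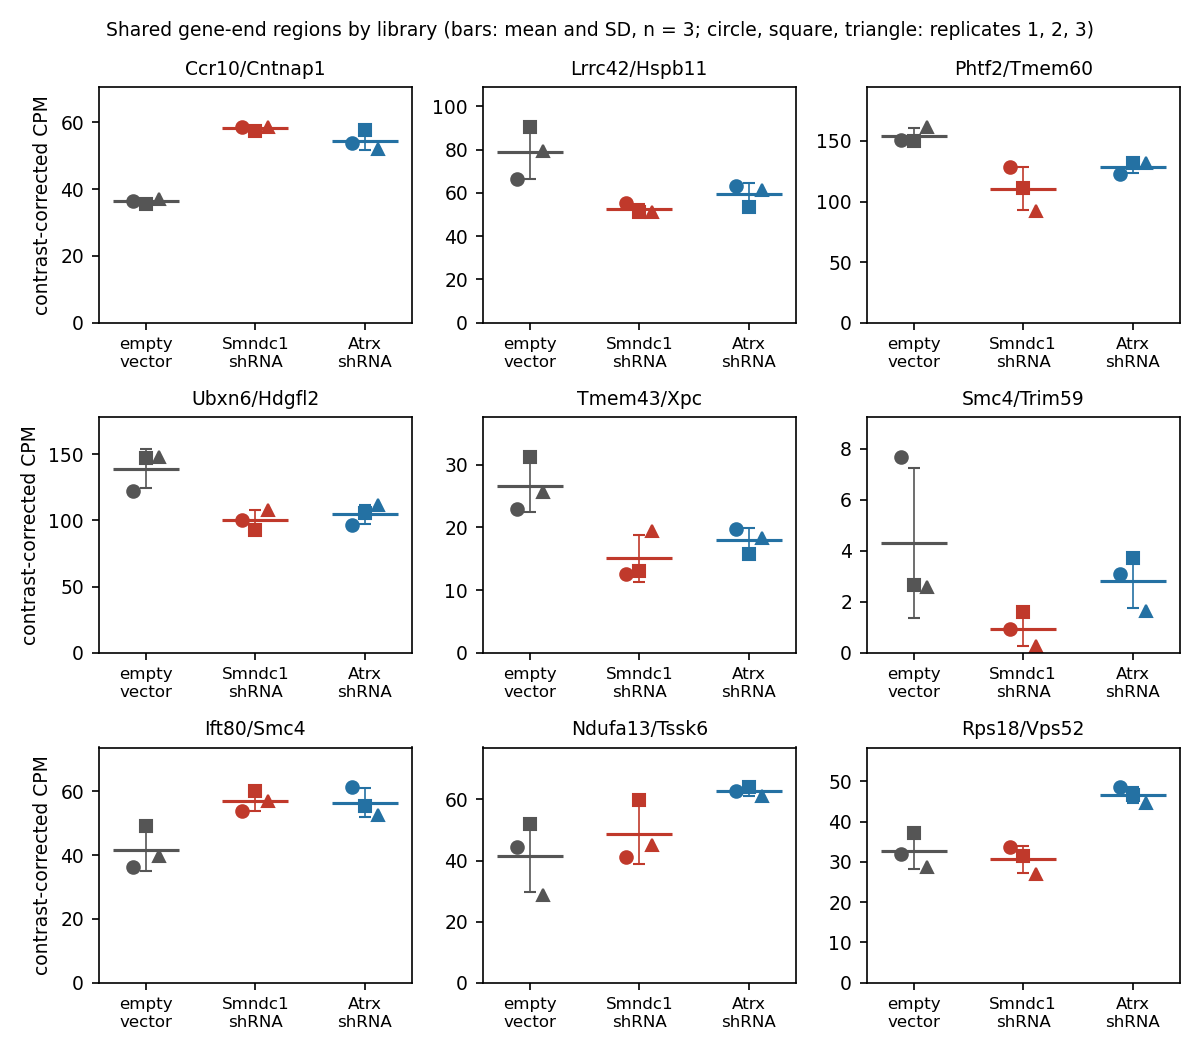
Corrected CPM of 9 members in each library, by group, with the mean and SD (n = 3); every panel starts at 0. Ccr10/Cntnap1 and Ift80/Smc4 lie higher with either shRNA, and Lrrc42/Hspb11, Phtf2/Tmem60, Ubxn6/Hdgfl2 and Tmem43/Xpc lower; Ndufa13/Tssk6 and Rps18/Vps52 lie highest with Atrx shRNA.

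For Atrx shRNA against empty vector, 8 members passed with trended offsets, 6 higher and 2 lower. That is 0.411% of members, beside 0.256% of all regions (0.185% higher, 0.0709% lower) and 0.474% of single-gene end regions. The members' median log2 fold change was 0.02, beside -0.02 over all regions. The count was 1 without any 1 of the 3 empty vector libraries, 0 without Atrx shRNA replicate 1 or 2, and 13 and 19 without Smndc1 shRNA replicates 2 and 3, which are in neither of the groups compared but share the fit. On corrected CPM the groups were apart in all 8, and on TMM levels in 4. As above, the calls were picked on these corrected values, so this is no further support, and the share over all members is not given. None of the 8 calls held in all 9 fits without a library.

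Besides Ccr10/Cntnap1 and Ubxn6/Hdgfl2, a call with Atrx shRNA was at Ndufa13/Tssk6 (chr8:69902451-69903533), at a complex I subunit gene and a short kinase gene of the testis, with 44.3, 51.9 and 28.7 corrected CPM in empty vector, 41.1, 59.7 and 45.1 with Smndc1 shRNA and 62.9, 64.1 and 61.2 with Atrx shRNA. On this scale the Atrx libraries were close together and above all others, and empty vector replicate 3 was low (0.58 ± 0.13, adjusted p = 0.0234). With TMM factors the groups overlapped and the log2 fold change was 0.55 ± 0.28 (adjusted p = 0.865). Leaving out empty vector replicate 1, empty vector replicate 3, Atrx shRNA replicate 1 or Atrx shRNA replicate 2 in turn ended the call, with adjusted p = 0.196, 0.267, 0.145 and 0.226. Emc1/Ubr4 (chr4:139379633-139380133), a weak region beside a membrane protein insertase subunit and a ubiquitin ligase, read 11.1, 6.40 and 5.67, 11.0, 16.5 and 7.30 and 18.4, 17.5 and 13.1 in the same order. Atrx and empty vector libraries did not overlap, at 1.08 ± 0.25 (adjusted p = 0.0217). Leaving out empty vector replicate 2, empty vector replicate 3, Atrx shRNA replicate 1 or Atrx shRNA replicate 2 in turn ended the call, with adjusted p = 0.256, 0.128, 0.222 and 0.213. Hes7/Aloxe3 (chr11:69123707-69124515; a repressor of the segmentation clock and a skin lipoxygenase) rose by 0.61 ± 0.14 (adjusted p = 0.0243), Gm39270/Zc3h18 by 0.56 ± 0.14 (adjusted p = 0.0468) and Eef1akmt4/Camk2n2 by 0.44 ± 0.11 (adjusted p = 0.0393). Each of these 3 calls held in 3 of the 9 fits without a library, with adjusted p up to 0.221, 0.343 and 0.348.

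Smndc1 shRNA against Atrx shRNA gave 5 calls with trended offsets, 4 higher and 1 lower with Smndc1 shRNA: 0.257% of members, beside 0.576% of all regions (0.197% higher, 0.38% lower) and 0.502% of single-gene end regions. The lower one was Rps18/Vps52 (chr17:33955392-33956104), a head-to-head promoter of a ribosomal protein and a vesicle tethering subunit. Its corrected CPM was 31.9, 37.1 and 28.7 in empty vector, 33.6, 31.4 and 26.9 with Smndc1 shRNA and 48.6, 46.5 and 44.5 with Atrx shRNA, so the Atrx libraries lay above all 6 others. The log2 fold change between the shRNAs was -0.60 ± 0.14 (adjusted p = 0.0133), and against empty vector the values were -0.09 ± 0.14 for Smndc1 shRNA and 0.51 ± 0.14 for Atrx shRNA (adjusted p = 0.847 and 0.0797). Leaving out Smndc1 shRNA replicate 3, Atrx shRNA replicate 1 or Atrx shRNA replicate 2 in turn ended the call, with adjusted p = 0.0811, 0.155 and 0.0937.

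The higher ones were Psmb3/Pip4k2b, at a proteasome subunit and a lipid kinase (0.73 ± 0.17, adjusted p = 0.0065), 1700020L24Rik/Mmp28, at a matrix metalloprotease (0.76 ± 0.18, adjusted p = 0.00904), Fancf/Gas2, at a Fanconi anaemia repair gene (0.60 ± 0.16, adjusted p = 0.0402), and Uckl1/Zfp512b (0.47 ± 0.11, adjusted p = 0.0215). Psmb3/Pip4k2b (chr11:97713698-97714302) read 26.6, 25.3 and 26.1 corrected CPM in empty vector, 29.0, 35.5 and 39.3 with Smndc1 shRNA and 18.7, 22.5 and 21.4 with Atrx shRNA, so the empty vector libraries lay between those of the shRNAs. Leaving out Smndc1 shRNA replicate 3 or Atrx shRNA replicate 1 in turn ended the call, with adjusted p = 0.0532 and 0.147. At Uckl1/Zfp512b the groups overlapped. The other 3 calls held in 6, 2 and 3 of the 9 fits without a library (1700020L24Rik/Mmp28, Fancf/Gas2 and Uckl1/Zfp512b), with adjusted p up to 0.187, 0.309 and 0.313. Over the whole comparison the count was 1 without Atrx shRNA replicate 1 or 2, 2 without Smndc1 shRNA replicate 3, 3 without empty vector replicate 1 or 2 and 11 without Smndc1 shRNA replicate 2.

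Few regions of the gene lists passed, and the lists do not hold every gene of their kind. Of all members, 1.39% passed for Smndc1 shRNA, 0.411% for Atrx shRNA and 0.257% between the shRNAs (trended offsets). The shares of all regions were 1.11, 0.256 and 0.576%. No list was tested against those shares, the counts per list are 0 to 2, and some regions, such as Tmem43/Xpc, are in more than 1 list. With trended offsets, of 55 regions at listed DNA repair genes 0 were higher and 1 was lower with Smndc1 shRNA. With Atrx shRNA against empty vector 0 passed. The endonuclease subunit gene Eme2, at a region called higher with Smndc1 shRNA, is outside this list. Of 58 regions at listed splicing factors and 41 at listed chromatin regulators, 0 passed in any comparison. Among them was the strong promoter of Cbx5 and Hnrnpa1, a heterochromatin protein and a splicing regulator, which read 135, 153 and 89.9 CPM in empty vector. The called regions at Tada2b, Hdgfl2, Carm1, Brpf1 and Gps2 are outside the chromatin list. Respiratory chain genes had 1 of 48 regions higher with Atrx shRNA (Ndufa13/Tssk6), mitochondrial ribosomal proteins 1 of 40 higher with Smndc1 shRNA (Eme2/Mrps34/Nme3), and tRNA synthetases 1 of 20 (D17H6S56E-5/Vars). Of 11 regions at p53 targets 2 were lower with Smndc1 shRNA (Smc4/Trim59 and Tmem43/Xpc), as were 2 of 69 at Tmem genes (Phtf2/Tmem60 and Tmem43/Xpc). Ccdc genes had 1 of 42 regions higher (Ccdc148/Pkp4) and 1 lower (Tada2b/Ccdc96), and cell cycle genes 1 of 27 higher (Ift80/Smc4) and 1 lower (Smc4/Trim59). Between the shRNAs, 1 of 55 DNA repair regions (Fancf/Gas2), 1 of 13 proteasome regions (Psmb3/Pip4k2b) and 1 of 47 zinc finger regions (Uckl1/Zfp512b) were higher with Smndc1 shRNA, and 1 of 32 ribosomal protein regions (Rps18/Vps52) was lower. None of the 24 histone regions and none of the 3 islet gene regions passed. The lists' median log2 fold changes for Smndc1 shRNA lay between -0.01 for 27 cell cycle regions and 0.14 for 42 regions at Ccdc genes, apart from 0.38 over the 3 islet regions.

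Head-to-head regions and single-gene starts differed slightly in how they stood with Atrx shRNA. The log2 difference between their median CPM was 0.45, 0.42 and 0.43 in empty vector, 0.41, 0.46 and 0.41 with Smndc1 shRNA and 0.52, 0.51 and 0.47 with Atrx shRNA, so the Atrx libraries were the highest 3 of 9. On corrected CPM the values were 0.45, 0.41 and 0.48 in empty vector, 0.41, 0.41 and 0.47 with Smndc1 shRNA and 0.48, 0.51 and 0.50 with Atrx shRNA, and there Atrx replicate 1 overlapped empty vector. With trended offsets the median log2 fold change for Atrx shRNA was 0.04 over 864 head-to-head regions and -0.01 over 7268 single-gene starts, and no test was made of the difference.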

How the data were processed

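The data are ATAC-seq libraries of alphaTC1 cells, 3 groups of 3. The authors deposited a table of raw counts for 80827 consensus regions and a file of the regions' coordinates; the counts are whole numbers with no scaling. Paired ends of 75 bp were sequenced, per the labels' protocols. MACS2 2.2.7.1, bedtools 2.27.1, Bowtie2 2.4.4, deepTools 3.5.1, SAMtools 2.8.0 and the build mm10 (GRCm38) are listed without roles, per the submitters' processing notes; for the merging of regions and the counted unit (read, fragment or insertion) a description is not given in the sources used here. Each count column matched 1 sample, with 0 left over.

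Gene bounds came from a RefSeq gene table and strand and starts from a RefSeq promoter table (GRCm38.p6), which gave strand for 17492 of 21887 coding genes. A region at 2 or more genes was a member. Counts were tested with edgeR 4.0.16 in R 4.3.3 (TMM factors, filterByExpr with a minimum count of 10, quasi-likelihood F test, all 9 libraries, Benjamini-Hochberg over 80345 regions; 482 fell below the filter). Trended offsets are a loess curve (span 0.3) of each library's log count on the mean log CPM, used as edgeR offsets, and corrected CPM is CPM after that curve. The naming rule took up to 6 regions per direction and comparison that were called, reached a mean log2 CPM of 1 and had groups that did not overlap. It also took the 6 highest members, up to 10 textbook pairs, up to 3 regions per gene list and those with most genes; any other region named was chosen after its values were seen. The fits were also run on simulated counts drawn with the levels and spread of the trended fit, which cannot show which scale is right for these libraries. Alternatives were DESeq2 1.42.0, limma 3.58.1 (voom), other size factors, filters, windows and gene sets, and each library left out. Python 3.11.15, pandas 2.3.3, numpy 2.4.6 and matplotlib 3.10.9 made the tables and figures. The members, gene lists and tests were chosen with earlier results of these data known. Replicate numbers were not treated as pairs. A few members and markers are counted but not reported here by name.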

Additional observations from a re-analysis of the deposited data

How the results depend on the processing

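The count of members called, 0 in each comparison with TMM factors, stayed 0 in all 3 with DESeq2, limma voom, DESeq2-type size factors, no filter on low counts and an adjusted p threshold of 0.01. Other settings gave calls, in the order Smndc1 shRNA against empty vector, Atrx shRNA against empty vector and Smndc1 against Atrx shRNA: trended offsets 27, 8 and 5; a mean count of at least 50 gave 4, 0 and 1; replicate 3 of every group left out 3, 1 and 0, and 22, 8 and 4 with trended offsets. Library size only, 6 libraries and the wide window (2000 bp outside, 1000 bp inside) each gave 1, 0 and 0. With trended offsets the wide window gave 46, 14 and 8, the narrow window (500 and 250 bp) 17, 5 and 3, leaving out predicted genes 26, 7 and 4, and pairs that do not overlap 23, 4 and 3. The members tested in these settings numbered, in that order, 2882, 1475, 1777 and 1386. They numbered 1805 with a mean count of at least 50 and 1947 in the main setting, so the counts do not share a base. Over all regions, trended offsets in the main setting called 1.11, 0.256 and 0.576%. Settings that pair a window, gene set or replicate 3 with trended offsets were chosen after seeing the data. Leaving out 1 library gave 0 to 2 calls for Smndc1 shRNA and 0 in the other comparisons with TMM factors, and 5 to 30, 0 to 19 and 1 to 11 with trended offsets; for Smndc1 shRNA the counts were 11, 5 and 23 without empty vector replicates 1 to 3, 16, 17 and 30 without those of Smndc1 shRNA and 23, 20 and 29 without those of Atrx shRNA. Of the 27 Smndc1 calls, 11 were higher and 16 lower, against 25 and 21 with the wide window and 12 and 10 without replicate 3.

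A replicate block on the number gave counts of 13, 5 and 5, and 63, 38 and 24 with trended offsets. The numbers were not taken as pairs: same-numbered libraries of different groups correlated over 0.1 in 5 of 9 cases (lowest -0.0392, highest 0.419), and 3 of 9 libraries correlated best with their own number in both other groups. These are the replicate 3 libraries, which correlated with each other at 0.352, 0.419 and 0.313.

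The log2 difference in level between shared and single-gene ends, 0.47 in empty vector, was positive in each setting: 0.24 with a mean count of at least 50, 0.44 with the narrow and 0.53 with the wide window, 0.41 per kb, 0.38 from means, and 0.44 for head-to-head regions against single-gene starts; leaving out 1 library gave 0.46 to 0.48. The causes were not tested. Depth limits the weak members: 4.52% read under 5 CPM.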

Other observations

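At the edge of the window rule, 13 members overlapped the window of 1 of their genes by at most 10 bp, with a median of 9.47 CPM in empty vector. A further 8 regions missed the rule by at most 10 bp and had a median of 20.2 CPM. One of the members just inside, Spata5l1/AA467197 (chr2:122637478-122638137), read 6.51, 3.63 and 5.63 CPM in the empty vector libraries.

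Histone gene pairs were weaker than other shared ends. The 21 regions between 2 or more histone genes had a median of 17.5 CPM in empty vector. The highest was H4c1/H3c1/H1f1 (chr13:23760844-23762765), with genes for a core histone of either kind and a linker histone, at 69.0 ± 15.4 CPM (n = 3), and the lowest was H2ac12/H2bc12 (chr13:22034915-22035415), at 6.35 ± 0.776 CPM.

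In 91 gene sets with 2 regions of unequal number of starts, the companion with fewer starts had a median log2 fold change of 0.11 with Smndc1 shRNA and 0.20 with Atrx shRNA (trended offsets), beside 0.01 and 0.03 at the region with more starts. The companion stood above its neighbour in 52 and 57 of the 91. These comparisons share the empty vector libraries, the companions are weaker, and the part of level in this difference was not tested.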
